A study of Homo sapiens with 2 samples.

Results

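RAB GTPases are small membrane switches, and 57 of the 19111 autosomal protein-coding genes of the GENCODE release 44 annotation encode one by the rule used here. The rule took each symbol made of RAB, digits and at most a pair of further letters, which matched 59 autosomal genes. RAB3IP and RAB5IF were left out because they encode partners of RAB proteins. Another 7 RAB genes on chromosome X were outside the rule. The 57 genes lay on 21 autosomes.

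A RAB protein is active when bound to GTP, which guanine nucleotide exchange factors (GEFs) load onto it, and inactive once a GTPase-activating protein (GAP) has stimulated its hydrolysis to GDP. Active RAB proteins sit on a particular membrane by a lipid tail and recruit effectors that move, tether or fuse vesicles. Many RAB genes are used by nearly all cells, whereas others are known from epithelial polarity, from granule release in blood cells or from neurotransmitter release.

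Open chromatin of CAMA-1, an epithelial line from breast cancer, was mapped by ATAC-seq. In this assay the Tn5 transposase cuts accessible DNA and attaches sequencing adapters to it. The 2 biological replicates of 50000 cells each were adherent cultures in DMEM with fetal bovine serum and penicillin-streptomycin, received no treatment, and form a single condition of a single line. A promoter was called open when a peak lay within 1 kb of an annotated transcription start site (TSS) in both replicates, and closed when no peak was called there. Peak strength is given as MACS2's fold enrichment, a ratio of stacked reads at the highest base of the peak to a genome-wide background, each plus 1.

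Replicate 1 held 245736 peaks and replicate 2 held 259745, and the files do not give the number of reads per library. All 12 luminal epithelial marker genes (EPCAM, KRT8, GATA3 and others) had a TSS peak in both replicates, with median fold enrichments of 93.6 and 90.1. Of 12 blood genes, 7 had a peak near any TSS but only 3 near their canonical TSS, and PTPRC, CD3E, SPI1, CD79A and IKZF1 had none. Of 12 neuronal genes the counts were 8 and 5, and NEFL and GRIN2B had none. A peak near some TSS was therefore common even among genes of other lineages, and it is a measure of open chromatin, not of transcription.

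RAB promoters were open more often and more strongly than the average gene. A TSS peak was present in both replicates for 53 of 57 RAB genes, or 93.0% (95% Wilson confidence interval 83.3 to 97.2%), against 80.5% of all autosomal protein-coding genes. Replicate 1 alone had a peak at 54 RAB genes (81.3% of all genes) and replicate 2 at 53 (81.8% of all genes). With only the canonical TSS of each gene, 51 of 57 RAB genes (89.5%) were open, against 74.6% of all genes. Among CpG-rich promoters (defined below) these shares were 92.1% of 38 RAB genes and 90.4% of all genes. Among CpG-poor promoters they were 85.7% of 7 RAB genes and 43.7% of all genes. The median fold enrichment, with a gene without a peak taken as 0, was 67.4 in replicate 1 and 70.1 in replicate 2 for RAB genes and 40.0 and 41.4 for all genes, a ratio of 1.69 ± 0.00798 (SD, n = 2). In both replicates 39 RAB genes (68.4%) exceeded the median of all genes, as did 48.2% of all genes. RAB peaks were also wider, with median widths of 1340 and 1349 bp against 1036 and 1042 bp for all genes. Among all genes with a TSS peak the RAB genes had median percentiles of 67.5 and 67.9, and among those of their own chromosomes, which differ in peak strength in this line, of 63.7 and 69.0. In a bulk culture, a weak opening in all cells and a strong opening in some cells cannot be told apart.

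The replicates gave nearly the same order of RAB promoters. Over the 53 genes with a peak in both, the ratio of replicate 2 to replicate 1 had a median of 1.02 and ranged from 0.765 at RAB29 to 1.32 at RAB22A. The log2 ratio had an SD of 0.15 for RAB genes and 0.22 for all genes with a peak. Most neighbours in the order of RAB genes differed by less than this spread.

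**Figure D1:**
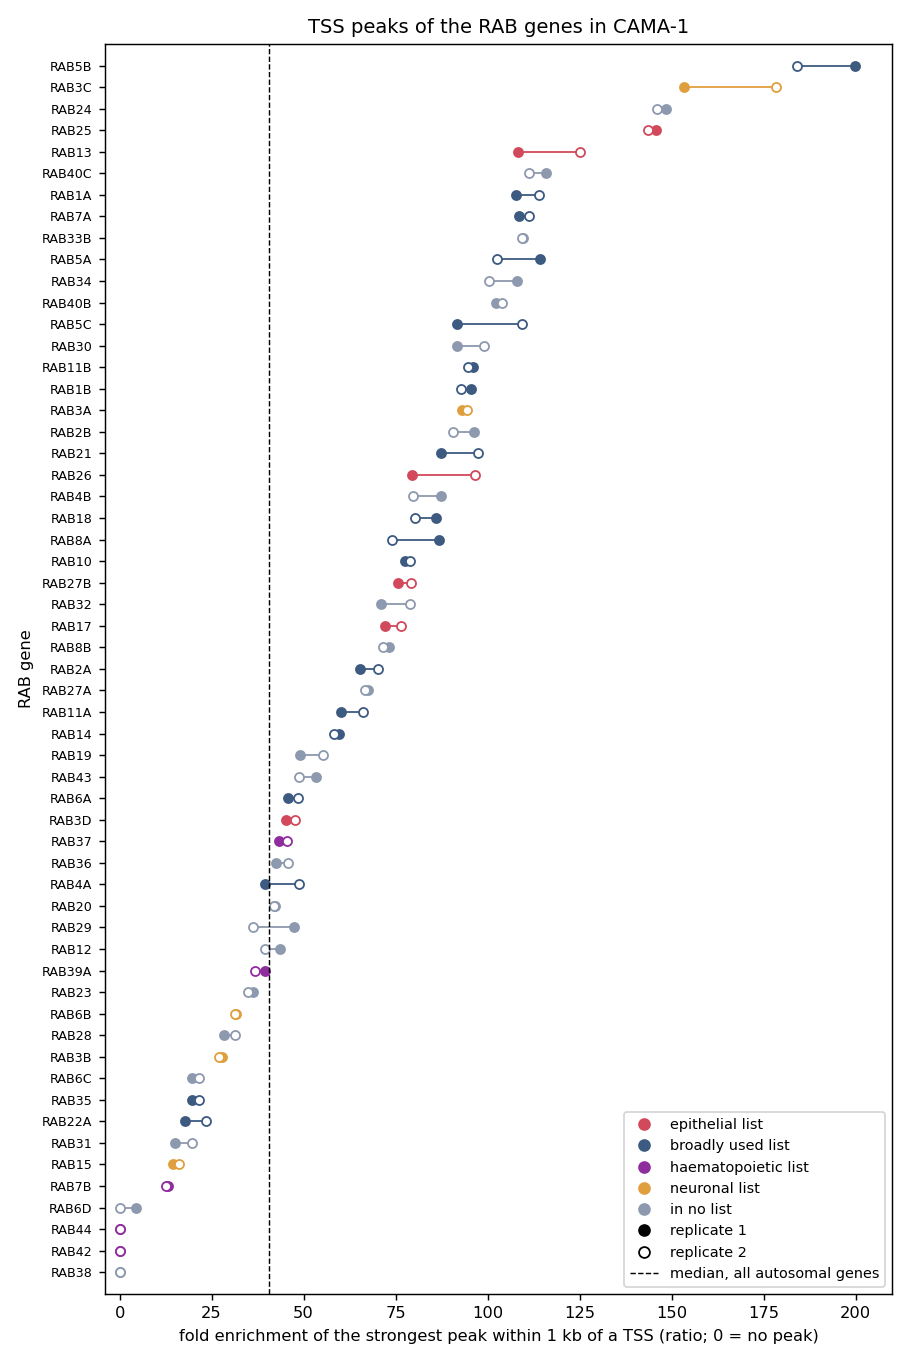
Fold enrichment (horizontal axis, a ratio) of the strongest peak within 1 kb of a TSS for each of the 57 RAB genes, ordered by the mean, with filled points for replicate 1, open points for replicate 2 and colours for the tissue lists; the dashed line is the median of all autosomal protein-coding genes. RAB5B and RAB3C stand at the top, all 6 genes of the epithelial list lie right of the line, and RAB38, RAB42 and RAB44 lie at 0.

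The promoters of RAB25, RAB11A, RAB17, RAB3C, RAB31 and RAB42 are shown because they span the range of the results and differ in CpG content. They are RefSeq promoters of GRCh38.p14, from 250 bases before to 50 bases after the TSS, written 5′ to 3′ on the gene's strand with each CpG in capitals. RAB25 (chr1:156060910-156061209, forward) and its ubiquitous relative RAB11A (chr15:65869241-65869540, forward) were both open. RAB17 (chr2:237590685-237590984, reverse) was open with few CpGs. RAB3C (chr5:58582825-58583124, forward) had the strongest peak of the neuronal list. RAB31 (chr18:9708051-9708350, forward) has the most CpGs of the 45 RAB promoters matched, and RAB42 (chr1:28592015-28592314, forward) has few, and neither had a peak here.
RAB25: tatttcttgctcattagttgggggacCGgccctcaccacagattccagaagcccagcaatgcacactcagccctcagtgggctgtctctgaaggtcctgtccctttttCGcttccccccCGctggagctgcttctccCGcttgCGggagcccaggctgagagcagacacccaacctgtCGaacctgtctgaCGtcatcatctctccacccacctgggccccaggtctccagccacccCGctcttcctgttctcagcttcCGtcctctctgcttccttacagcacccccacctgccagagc
RAB11A: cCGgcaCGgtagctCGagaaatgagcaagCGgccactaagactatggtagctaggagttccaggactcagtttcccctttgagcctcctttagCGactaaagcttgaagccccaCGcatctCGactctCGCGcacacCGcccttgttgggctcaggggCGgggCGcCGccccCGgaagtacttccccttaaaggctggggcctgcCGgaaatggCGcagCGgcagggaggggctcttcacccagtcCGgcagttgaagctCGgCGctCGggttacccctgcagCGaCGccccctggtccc
RAB17: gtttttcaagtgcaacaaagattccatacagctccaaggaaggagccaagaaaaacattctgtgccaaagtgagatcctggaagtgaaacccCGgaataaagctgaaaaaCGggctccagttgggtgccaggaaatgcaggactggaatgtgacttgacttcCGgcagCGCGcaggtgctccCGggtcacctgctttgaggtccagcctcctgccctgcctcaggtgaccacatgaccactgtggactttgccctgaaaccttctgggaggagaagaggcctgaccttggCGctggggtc
RAB3C: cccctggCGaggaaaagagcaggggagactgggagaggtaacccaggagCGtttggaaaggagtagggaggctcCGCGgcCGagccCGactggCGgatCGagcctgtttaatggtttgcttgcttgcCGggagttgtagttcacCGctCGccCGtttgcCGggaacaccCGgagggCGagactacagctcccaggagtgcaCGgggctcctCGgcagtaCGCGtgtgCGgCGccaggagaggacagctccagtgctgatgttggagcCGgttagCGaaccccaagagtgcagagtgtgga
RAB31: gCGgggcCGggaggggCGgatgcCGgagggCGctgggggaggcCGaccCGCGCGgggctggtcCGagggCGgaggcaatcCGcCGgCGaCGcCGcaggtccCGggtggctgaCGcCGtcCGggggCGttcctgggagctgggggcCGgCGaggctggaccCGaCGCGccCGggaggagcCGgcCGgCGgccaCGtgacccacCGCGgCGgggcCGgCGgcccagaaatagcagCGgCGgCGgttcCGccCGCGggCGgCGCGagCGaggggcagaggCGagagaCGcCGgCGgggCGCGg
RAB42: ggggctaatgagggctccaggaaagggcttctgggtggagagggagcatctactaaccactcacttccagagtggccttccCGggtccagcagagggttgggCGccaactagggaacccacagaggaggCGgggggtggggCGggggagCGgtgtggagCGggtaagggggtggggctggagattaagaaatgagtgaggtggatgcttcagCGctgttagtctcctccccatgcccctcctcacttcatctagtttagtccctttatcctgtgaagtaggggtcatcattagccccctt

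The 6 RAB genes known from epithelial and glandular cells were all open, against 80.5% of all genes. Against 48.2% of all genes, each of the 6 exceeded the median of all genes in both replicates. Their median fold enrichment was 77.5 in replicate 1 and 87.9 in replicate 2. RAB25, a relative of RAB11A that recycles membrane proteins in polarised epithelia, had the strongest peak, with 146 in replicate 1 and 144 in replicate 2. Its peak had a height of 632 stacked reads (exact Poisson 95% interval 584 to 683) and 648 (599 to 699.9), so that the replicates differed by less than the counting error. These intervals, like those of shares, cover counting error only. Among all genes with a TSS peak RAB25 stood at percentiles 95.3 and 94.9, and among those of chromosome 1 at 91.0 and 90.4. The authors report copy-number aberrations in CAMA-1, and peak strengths here were not adjusted for them.

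RAB13, which acts in tight junction assembly, had fold enrichments of 108 and 125. The annotation starts an unnamed protein-coding gene (ENSG00000285641) at the same TSS, so the peak cannot be assigned to RAB13 alone. RAB26, known from the maturation of secretory granules, reached 79.4 and 96.6, and all 5 of its groups of TSSs (groups over 1 kb apart) had a peak in both replicates. These groups lay close together, and its canonical group and the next one downstream were served by the same peak, with 76.6 and 83.1. In replicate 2 the groups 2951 and 4417 bp downstream also shared their strongest peak, with 96.6. RAB27B, which docks secretory vesicles and multivesicular bodies at the plasma membrane, had 75.7 and 79.2.

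RAB17, known from transcytosis in polarised epithelia, had 72.2 and 76.5 at a TSS 14850 bp downstream of the canonical TSS and 64.2 and 63.9 at the canonical TSS. With weaker peaks at 2 further groups, 4 of its 5 groups of TSSs were open. These had 12.9 and 11.1 at an upstream group and 3.22 and 3.10 at a group 11164 bp downstream. The latter peak had a height of 13 in each replicate, where the lowest called height was 11. RAB3D, on secretory granules of exocrine cells, was the lowest of the list with 45.3 and 47.8. That peak lay at an upstream TSS 1 bp from a TSS of TMEM205, and at its canonical TSS RAB3D had 40.5 and 38.3.

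Of the 5 RAB genes known from blood cells, 3 were open, against 80.5% of all genes. Only RAB37 exceeded the median of all genes in both replicates, against 48.2% of all genes. RAB44, a large RAB with a calcium-binding domain, and RAB42 had no TSS peak in either replicate. In replicates 1 and 2 the nearest peak lay 3767 and 3760 bp from the canonical TSS of RAB44 and 2393 and 2382 bp from that of RAB42. Signal too weak for the peak caller at these promoters was not detectable. RAB7B, which acts between late endosomes and the Golgi, had 13.1 and 12.6. RAB39A, known from phagosomes and autophagy in macrophages, had 39.6 and 36.7, but its peak also covered a TSS of SLC35F2. RAB37, known from mast cell secretion, had 43.3 and 45.6 at a TSS about 7585 bp downstream of the canonical TSS, where it had 24.4 and 23.2. The list's medians were 13.1 and 12.6, and each of its genes lay below each epithelial gene in the same replicate.

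All 5 RAB genes of the neuronal list were open, against 80.5% of all genes, over a wide range of strength. RAB3C, a synaptic vesicle RAB, had 153 and 178, the second-highest mean of all 57 genes, with heights of 665 (615 to 718) and 805 (750.3 to 863) whose intervals did not overlap. No other protein-coding TSS lay within 87981 bp, so this peak covered the TSS of no other protein-coding gene. TSSs of noncoding genes were not examined. RAB3A, the best-studied RAB of neurotransmitter release, had 93.0 and 94.4. RAB6B, a Golgi RAB enriched in neurons, had 31.5 and 31.4, and RAB3B had 27.8 and 27.0. RAB15, an endosomal RAB of neural cells, was weakest with 14.5 and 16.1, and the peak over its canonical TSS reached only 9.89 and 9.51. RAB3C and RAB3A exceeded the median of all genes in both replicates, as did 48.2% of all genes, and the other 3 did not.

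The median of the epithelial list was 2.81 ± 0.282 (SD, n = 2) times that of the haematopoietic and neuronal lists together, which had medians of 29.7 and 29.2 over their 10 genes. This ratio describes these genes and was not tested, since genes are not replicates and the lists are short. The lists were written from textbook knowledge with earlier results of these data known, and RAB26, RAB27B, RAB3D and RAB37 are used in several lineages. RAB3C lay above all 6 epithelial genes, so the epithelial and neuronal lists overlapped. The 18 broadly used RAB genes were all open as well, against 80.5% of all genes. Their medians were 86.4 and 79.6, close to those of the epithelial list. Of these 18 genes, 15 (83.3%) exceeded the median of all genes in both replicates, against 48.2% of all genes. The 23 RAB genes in no tissue list had 21 open members, against 80.5% of all genes, and medians of 53.4 and 55.3.

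**Figure D2:**
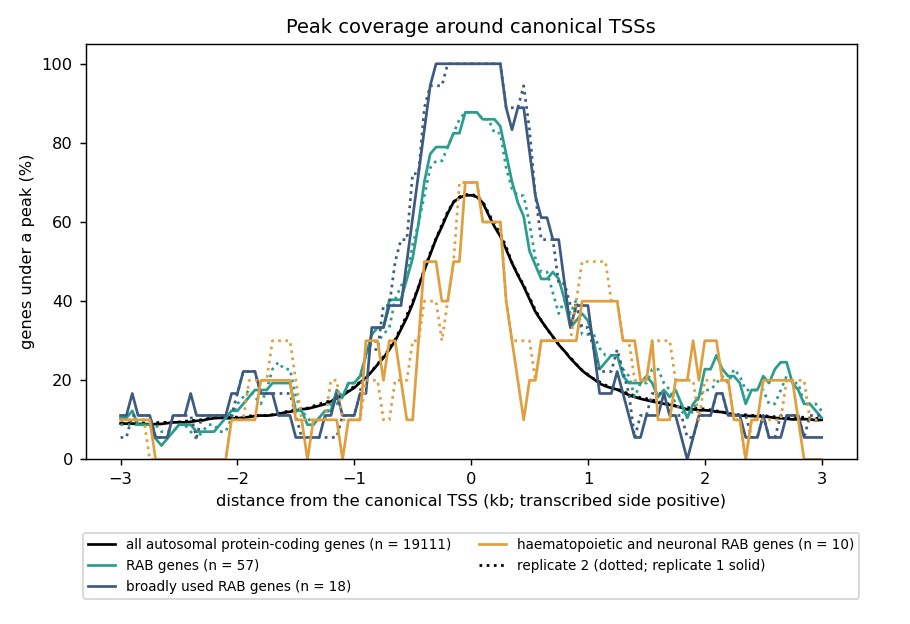
Share of genes (vertical axis, percent) whose position at a given distance from the canonical TSS (horizontal axis, kb) lay under a peak, in replicate 1 (solid) and replicate 2 (dotted). At the TSS itself the share was 87.7% of RAB genes in each replicate, 66.8% and 67.0% of all genes, 100% of the broadly used RAB genes and 70.0% of the 10 haematopoietic and neuronal RAB genes.

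Grouped by role, the RAB genes of the endoplasmic reticulum, the Golgi and recycling had the highest medians and those of the late endosome and the cilium the lowest. Of the 12 genes of the endoplasmic reticulum and Golgi, 11 were open, against 80.5% of all genes, with medians of 75.7 and 75.2. RAB1A and RAB1B, which carry vesicles from the endoplasmic reticulum to the Golgi, had 108 and 114 and 95.5 and 92.7. The exception, RAB6D, is a retrocopy of the Golgi gene RAB6A and had a peak in replicate 1 alone, with a fold enrichment of 4.37 and a height of 18. The related retrocopy RAB6C had 19.8 and 21.4, and 46.4% of the 32-base words within 1 kb of its TSS also occurred around that of RAB6D. Reads of these copies may be shared, and how reads with several alignments were treated is not given in the sources used here.

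All 10 genes of the early endosome were open, against 80.5% of all genes, with medians of 73.4 and 69.1. RAB5B, which drives fusion of early endosomes, had the strongest peak of all RAB genes, with 199.7 and 184 and heights of 867 (810.2 to 927) and 832 (776 to 891). This peak also covered a TSS of PMEL, 596 bp away. RAB5A had 114 and 103, and RAB5C had 91.6 and 109, so that all 3 RAB5 genes exceeded the RAB median in both replicates. RAB22A, an endosomal relative of RAB31, was among the weakest broadly used genes with 17.7 and 23.4.

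The 10 genes of recycling and polarity, which include RAB25, RAB13 and RAB17, were all open, against 80.5% of all genes. Their medians were 75.4 and 75.3. RAB11A, the recycling endosome RAB of most cells, had 60.3 and 66.1, or 0.437 times the mean of RAB25. No TSS of another protein-coding gene lay within 39702 bp of this peak. RAB35, which recycles receptors to the plasma membrane, had 19.8 and 21.4.

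Of the 7 genes of late endosomes, lysosomes and related organelles, 6 were open, against 80.5% of all genes. Their medians were 47.4 and 36.7. RAB7A, which directs late endosomes to lysosomes, had 109 and 111, 8.55 times the mean of RAB7B. RAB32 had 71.1 and 78.9, whereas RAB38, its partner in the biogenesis of melanosomes, had no TSS peak, with the nearest peak 6341 and 6299 bp from its canonical TSS. In these 2 pairs, and in no other of the 18 paralogue pairs compared, a single gene was open or the means differed by over 5 times. RAB24, an unusual RAB known from autophagy, had 148 and 146 in a peak 5232 and 5224 bp wide that also covered the TSS of PRELID1, 55 bp away.

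The 10 genes of regulated secretion had 9 open members, against 80.5% of all genes, and medians of 56.4 and 57.2. RAB27A, which serves granule release in many cell types, had 67.4 and 66.6, close to RAB27B. The 3 genes of the cilium were all open, against 80.5% of all genes, with medians of 36.4 and 34.9. For RAB34 the call rested on other TSSs. Its strongest peak, 108 and 100.4, covered a TSS of RPL23A and lay 1352 and 1359 bp from the canonical TSS of RAB34. In all, the strongest TSS peak of 12 RAB genes (21.1%) covered a TSS of another protein-coding gene in both replicates. These peaks cannot be assigned to either gene alone. They were those of RAB13, RAB19, RAB24, RAB2B, RAB34, RAB36, RAB39A, RAB3D, RAB4B, RAB5A, RAB5B and RAB5C. At RAB4B the other gene was RAB4B-EGLN2, which carries its name and starts 3 bp away. The matching share over all genes was not computed, so whether 21.1% is unusual is not known. Separate open TSS groups were about as common as elsewhere, with at least 2 in 18 RAB genes (31.6%) and in 35.6% of all genes, and after RAB26 and RAB17 came RAB18, RAB27A, RAB30, RAB31, RAB37 and RAB5C with 3 each.

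RAB31, which acts between the Golgi and endosomes, was open only at internal TSSs by the 1 kb rule. No peak lay within 1 kb of its canonical TSS, where the nearest was 1194 and 1182 bp away, with 18.2 and 18.8. Its strongest peak within 1 kb of a TSS, 15.0 and 19.7, was about as strong and lay at a TSS 141295 bp downstream. Its 7 groups of TSSs included 3 with a peak in both replicates. Its gene body of 154277 bp held 28 and 29 peaks over 1 kb from any protein-coding TSS, of which the strongest had 55.2 and 59.0. These were the highest counts of the family, not scaled to gene length. With 50 kb on each side RAB31 had 18.1 and 17.7 such peaks per 100 kb, against 32.5 and 34.7 at RAB44. The canonical promoter without a peak thus lay in a gene with many open sites.

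**Figure D3:**
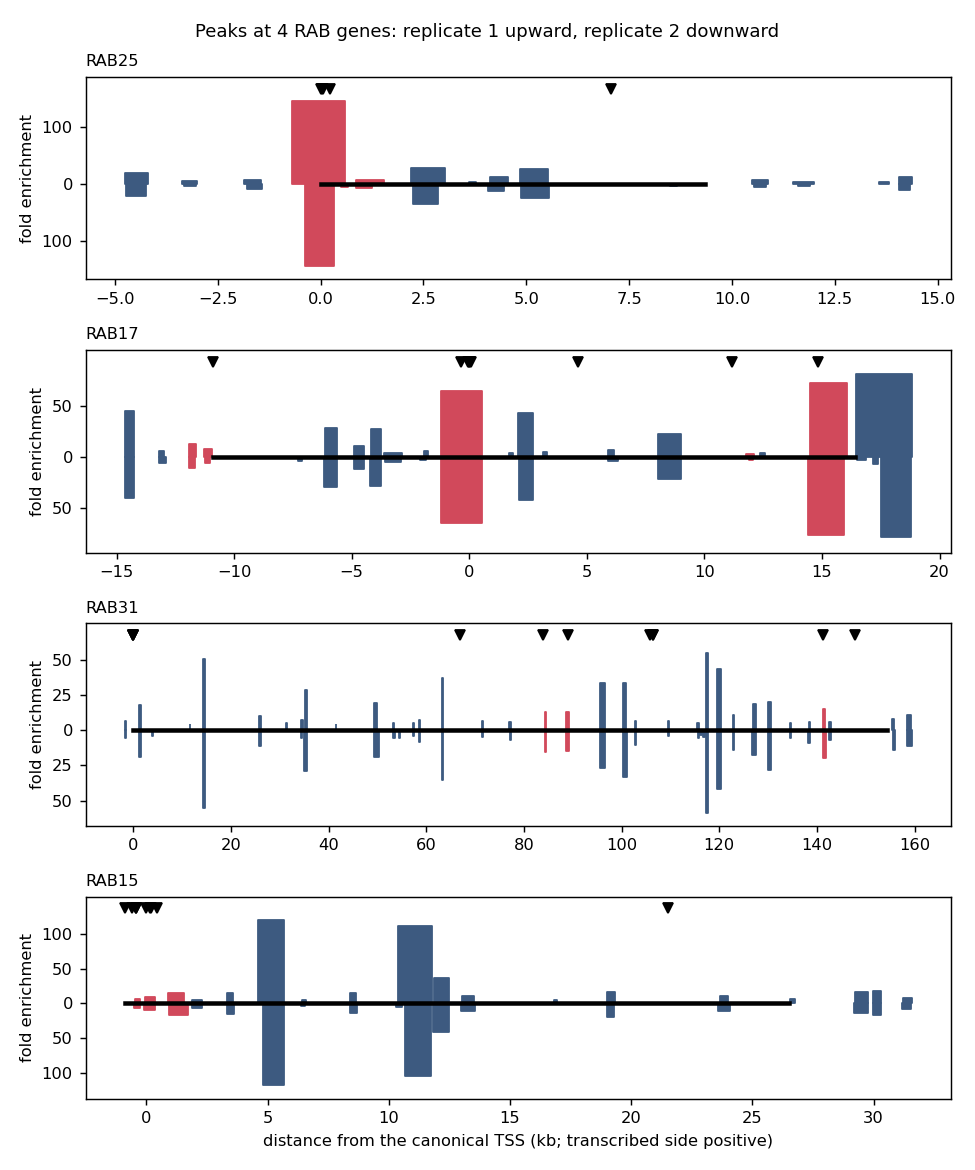
Peaks along RAB25, RAB17, RAB31 and RAB15, with replicate 1 upward and replicate 2 downward, against distance from the canonical TSS (kb); each bar spans a peak and its height is the fold enrichment, red marks peaks within 1 kb of a TSS of the gene and blue other peaks, black lines are the genes and triangles their TSSs. RAB25 has a single dominant peak at its TSS. RAB17 has strong peaks at the canonical TSS and at one 14850 bp downstream. Its tallest plotted peak, 81.0 in replicate 1 and 78.1 in replicate 2, lies past the end of the gene. RAB31 has no peak at its canonical TSS, and RAB15 has its strongest peaks inside the gene.

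The matched epithelial RAB promoters had a lower median CpG content than the broadly used ones, with ranges that overlapped. A RefSeq promoter within 1 kb of the canonical TSS was matched for 45 of 57 RAB genes and for 14241 autosomal protein-coding genes. RAB12, RAB15, RAB1A, RAB20, RAB26, RAB27A, RAB2A, RAB33B, RAB36, RAB37, RAB38 and RAB44 were not matched. The ratio of observed to expected CpG had a median of 0.815 for RAB genes and 0.792 for all genes. It exceeded 0.6 in 38 of 45 RAB promoters (84.4%) and in 70.5% of all promoters. All 16 matched broadly used RAB genes exceeded 0.6, with a median of 0.845, but only 2 of 5 epithelial genes did, with a median of 0.487. RAB17 had a ratio of 0.313 with 7 CpGs, RAB25 of 0.363 with 9 CpGs and RAB13 of 0.487 with 14 CpGs in the 300 bases. RAB27B, at 0.656, and RAB3D, at 0.630, lay near the lowest of the broadly used genes, RAB5B at 0.651.

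Promoters with so few CpGs were mostly weak or closed in CAMA-1. Of the 4207 promoters of all genes with a ratio of at most 0.6, 43.7% had a peak at the canonical TSS in both replicates. Above 0.6 the share was 90.4%. Among RAB promoters the shares were 6 of 7 (85.7%) and 35 of 38 (92.1%). Above 0.6 the medians at the canonical TSS were 74.4 and 76.5 for RAB genes and 50.0 and 52.2 for all genes. The mean peak of RAB25 was stronger than 98.5% of the 4207 CpG-poor promoters, that of RAB13 than 97.1% and that of RAB17 than 90.04%. The RAB13 peak, like that of RAB19, also covered a TSS of another protein-coding gene and cannot be assigned to either gene alone. The other CpG-poor RAB promoters were weaker. RAB19, which is in no tissue list, had a ratio of 0.460 and exceeded 87.8% of them, and the neuronal RAB3B, at 0.581, exceeded 80.4%. The haematopoietic RAB7B, at 0.186 with 4 CpGs, exceeded 72.0%, and RAB42, at 0.278 with 7 CpGs, had no peak. The opposite case was RAB31, whose promoter has 52 CpGs, a ratio of 1.07 and a GC content of 82.7%. Of the 1878 promoters of all genes with a ratio over 1, 119 (6.34%) were not open at the canonical TSS in both replicates, and RAB31 was among the 103 with no such peak in either. RAB3C, with 23 CpGs and a ratio of 0.796, lay among the CpG-rich promoters.

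**Figure D4:**
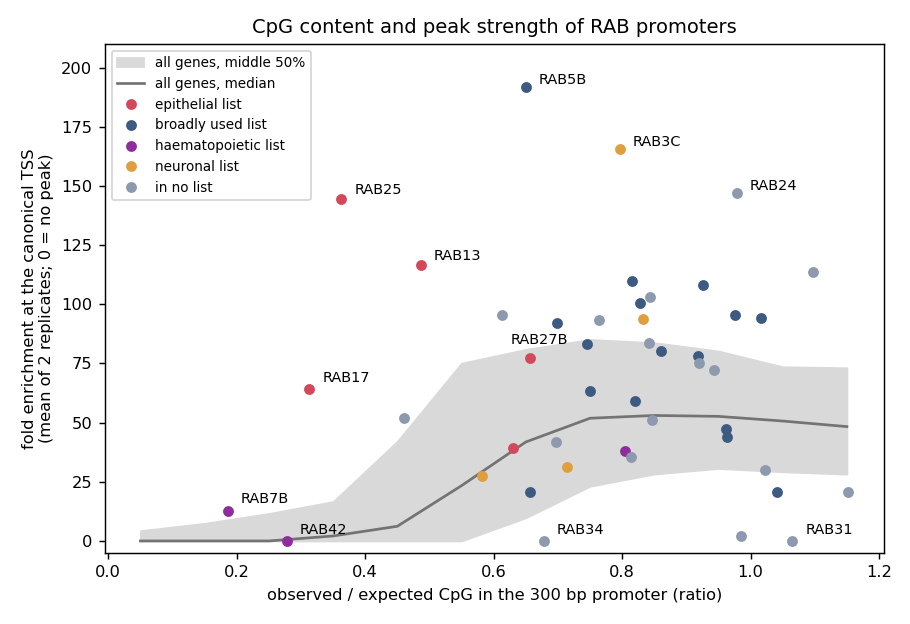
Fold enrichment at the canonical TSS (vertical axis, mean of 2 replicates, 0 for no peak) against the ratio of observed to expected CpG in the 300-base promoter (horizontal axis) for the 45 matched RAB genes; the grey line and band are the median and middle 50% of all matched genes in bins of 0.1. RAB25, RAB13, RAB17, RAB19 and RAB7B lie above the band at low CpG content, and RAB31 and RAB34 lie at 0 despite a ratio over 0.6.

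Short motifs were counted on both strands of the same 300 bases. The GC box of SP1, GGGCGG, occurred in 37 of 45 RAB promoters (82.2%) and in 63.0% of all promoters, and it was found in neither RAB25 nor RAB17 nor RAB3C. The ETS motif CCGGAAG occurred in 8 RAB promoters (17.8%, against 15.2% of all), among them RAB17 and RAB11A. The lysosomal CLEAR motif TCACGTGA was found in RAB21 and RAB5A alone (4.44%, against 1.46%). The TATA box TATAAA occurred in 3 RAB promoters, those of RAB6C, RAB6D and RAB7B (6.67%, against 9.42%). The NRF1 motif occurred in the promoter of RAB18 alone (2.22%, against 1.80%). The grainyhead motif AACCGGTT (0.140% of all promoters) and the estrogen response element (0.0562%) had no exact match in any of the 45. Matches of letters are descriptions and do not show that a factor was bound.

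Away from TSSs, RAB genes lay in chromatin with somewhat more peaks than the average gene. Counting peaks over 1 kb from any protein-coding TSS, the gene and the 50 kb on each side held a median of 12.1 peaks per 100 kb in replicate 1 and 12.9 in replicate 2 for RAB genes, and 9.62 and 10.1 for all genes. The medians were 16.9 and 16.9 for the epithelial, 13.6 and 17.4 for the haematopoietic, 11.2 and 10.3 for the neuronal and 10.3 and 10.6 for the broadly used genes. RAB44, whose promoter was closed, had 32.5 and 34.7 peaks per 100 kb, and RAB25 had 32.01 and 27.4. A peak of this kind lay within the gene in both replicates for 45 RAB genes (78.9%) and for 69.9% of all genes.

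At 14 RAB genes (24.6%) the strongest such peak inside the gene exceeded the strongest TSS peak in both replicates, close to the 26.4% of all genes. RAB15 had 119 and 117 at 5146 bp downstream of its canonical TSS, against 14.5 and 16.1 at its TSS. RAB7B had 88.6 and 86.7 at 19177 bp downstream, against 13.1 and 12.6. RAB44 had 65.3 and 57.9 at 26833 bp downstream and no TSS peak. The other genes were the epithelial RAB3D, with 65.6 and 65.0 inside the gene against 45.3 and 47.8 at its TSS, the haematopoietic RAB42, the broadly used RAB11A, RAB11B and RAB35, and RAB12, RAB20, RAB31, RAB36, RAB40C and RAB8B of no tissue list, so that each tissue list was represented. RAB11A had 122 and 119.9 in a peak at −36607 bp from its canonical TSS, within the annotated gene. At RAB25 the strongest internal peak, 2615 bp downstream, had 28.3 and 34.7, well below its promoter.

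**Figure D5:**
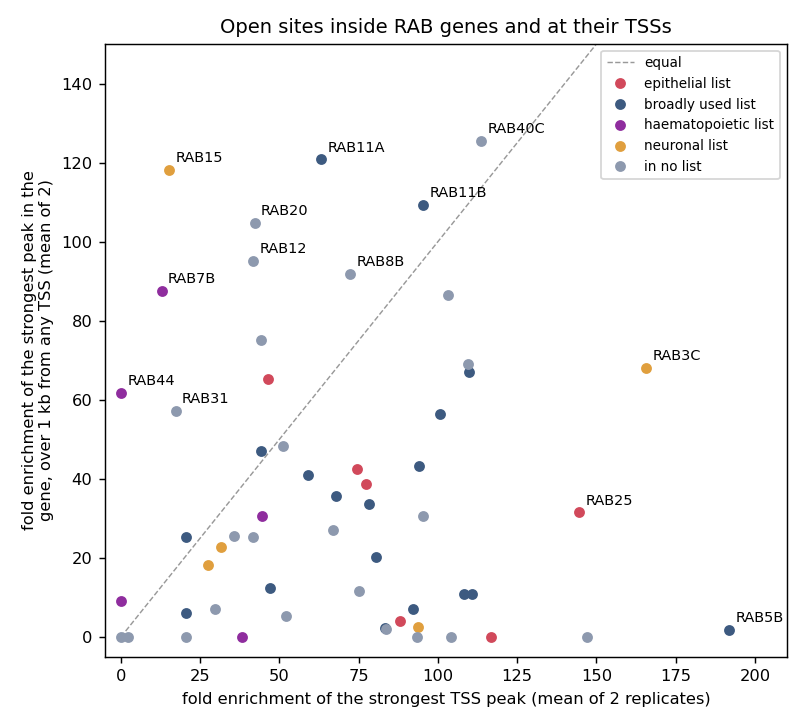
Fold enrichment of the strongest peak inside the gene and over 1 kb from any protein-coding TSS (vertical axis) against that of the strongest TSS peak (horizontal axis), both as means of 2 replicates, for the 57 RAB genes; the dashed line marks equal values. RAB15, RAB7B, RAB44, RAB20, RAB12 and RAB11A lie far above the line and RAB5B, RAB3C and RAB25 far below it.

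The 200 bases at the middle of these internal peaks are given for RAB25, RAB15, RAB7B and RAB11A, from hg38 on the forward strand, to show the sites that were open away from the promoters. They lie at chr1:156063609-156063808, chr14:64966997-64967196, chr1:205984113-205984312 and chr15:65832785-65832984. Capitals mark matches on either strand to the motifs of AP-1, FOX, GATA, grainyhead or SP1 factors, whose letters follow.
RAB25: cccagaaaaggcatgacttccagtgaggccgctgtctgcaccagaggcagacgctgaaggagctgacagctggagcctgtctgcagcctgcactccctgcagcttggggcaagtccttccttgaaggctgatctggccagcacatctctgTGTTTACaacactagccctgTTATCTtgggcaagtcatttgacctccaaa
RAB15: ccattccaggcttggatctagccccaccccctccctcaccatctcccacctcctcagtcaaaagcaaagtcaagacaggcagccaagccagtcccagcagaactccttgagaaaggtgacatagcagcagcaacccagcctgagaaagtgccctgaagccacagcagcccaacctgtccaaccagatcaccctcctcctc
RAB7B: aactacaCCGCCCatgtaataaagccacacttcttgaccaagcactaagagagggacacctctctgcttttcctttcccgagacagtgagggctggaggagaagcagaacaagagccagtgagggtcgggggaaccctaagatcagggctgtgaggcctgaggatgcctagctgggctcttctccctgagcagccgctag
RAB11A: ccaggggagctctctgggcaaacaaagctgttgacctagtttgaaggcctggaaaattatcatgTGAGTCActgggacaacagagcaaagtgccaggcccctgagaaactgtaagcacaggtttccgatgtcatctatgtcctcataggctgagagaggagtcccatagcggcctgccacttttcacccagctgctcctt

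The RAB25 site held a FOX and a GATA match, the RAB11A site an AP-1 match and the RAB7B site an SP1 match, and the RAB15 site held none. Over the 203874 peaks of replicate 1 that lie over 1 kb from any protein-coding TSS, the middle 200 bases held the AP-1 motif TGANTCA in 10.9%. They held the FOX motif TGTTTAC in 5.96% of these peaks and the GATA motif AGATAA in 9.77%. The SP1 motif GGGCGG used for promoters was found in 5.66% and the grainyhead motif in 0.133%. No rate outside peaks was computed for these motifs.

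The partners of RAB proteins were open almost throughout. Of 83 partner genes in lists of regulators and effectors, 81 had a TSS peak in both replicates (97.6%, 95% Wilson interval 91.6 to 99.3%). The share was 80.5% of all autosomal protein-coding genes, and the partner medians were 56.4 and 61.0. With only the canonical TSS, 76 of the 83 partners (91.6%) were open, against 74.6% of all genes. All 6 genes of the prenylation and membrane delivery machinery were open, with medians of 67.2 and 67.0, and RABIF, a RAB chaperone, was strongest with 86.5 and 88.5. All 22 GEFs were open, 20 of them also at the canonical TSS, with medians of 42.8 and 41.2 near those of all genes. DENND3 was strongest with 185 and 191, but had 60.1 and 62.1 at its canonical TSS. TBC1D10A was the strongest of 21 GAPs with 174 and 172, against 64.7 and 71.6 at its canonical TSS. Of the 21 GAPs, 20 were open, with medians of 78.0 and 83.1. The exception was TBC1D10C, a GAP of lymphoid cells also counted among the haematopoietic effectors, which had a peak of 5.29 in replicate 1 alone.

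The haematopoietic and neuronal effectors had lower medians than the epithelial and broadly used ones, as the RAB lists had. Both sets of lists were chosen with earlier results of these data known, so this likeness is not independent support. The counts of open effectors stand against 80.5% of all genes. All 10 epithelial effectors were open, with medians of 62.4 and 63.2, and MYO5C, a myosin of glandular epithelia, was strongest with 116 and 112. All 14 broadly used effectors were open, with medians of 55.8 and 60.6. They were led by RUFY1, an endosomal protein, with 196 and 198, against 56.4 and 55.1 at its canonical TSS. All 6 neuronal effectors had a TSS peak, with medians of 30.8 and 37.8, but only 4 had one at the canonical TSS. DOC2A, a calcium sensor of exocytosis, was strongest with 73.9 and 73.2, but had only 10.8 and 10.8 at its canonical TSS. Of 5 haematopoietic effectors 3 were open, with medians of 15.2 and 10.6. UNC13D, a RAB27A effector of cytotoxic granule release, was strongest with 158 and 157, whereas SYTL3, another RAB27 effector, had no TSS peak. These lists are short and were not tested against each other. Whether the peaks of partner genes also covered TSSs of other genes was not examined.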

How the data were processed

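The authors trimmed the reads with Trim Galore 0.6.5, aligned them with Bowtie2 2.3.5.1 and called peaks with MACS2 2.2.6 on hg38 in each replicate separately, according to the submitters' processing notes. MACS2 settings, the treatment of duplicate and multiply aligned reads and the Tn5 shift were not given in the sources used here. The authors deposited a fold enrichment (a ratio to background) for each peak, with a score, a −log10 p-value and a −log10 q-value. Rounded down, 10 times the −log10 q gave the score of each peak. The deposited fold enrichments were whole multiples of 1 step per replicate, to within 7.91e-05 of a step, which gave peak heights and backgrounds of 3.35 and 3.52 stacked reads. Depth per library is not in the files, so it sets an unknown limit on weak peaks.

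Peaks within 1000 bp of any TSS of GENCODE release 44 were assigned to genes, and the strongest was taken. A gene without a peak counted as 0 in medians. Shares have 95% Wilson intervals and heights exact Poisson intervals. With 2 replicates of 1 condition, no groups of samples were compared and no test was run. Members and gene lists were chosen with earlier results of these data known. Named were all genes of the epithelial, haematopoietic and neuronal lists, those without a TSS peak in both replicates, the 5 strongest and 5 weakest, pairs of paralogues differing by over 5 times or in their call, those with the most open TSS groups, and the strongest and the closed partners; others were named after their values were seen, as examples of a role or a pattern. The motifs searched in internal peaks were also chosen later. Scripts were tested on simulated peaks and used Python 3.11.15, numpy 2.4.6, pandas 2.3.3, scipy 1.17.1 and matplotlib 3.10.9. Alternatives were other distances (100 bp and 3 kb), the TSS under the peak, a canonical TSS, TSSs of protein-coding transcripts, stricter peaks, −log10 q as strength, percentiles within the chromosome, other promoter windows, other sets of RAB genes and the omission of each replicate. RNA-seq and the other assays of the study were not analysed here.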

Additional observations from a re-analysis of the deposited data

How the results depend on the processing

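Of 97 alternatives over 12 results, 85 left the result within its replicate spread or within 1.5 times its count. Another 12 moved it further and 0 reversed it. The limit for counts is wide, so this tally is a weak measure of robustness. With the 50000 strongest peaks it passed falls from 53 to 47 RAB genes and from 3 to 2 haematopoietic RAB genes. The ratios 1.69 and 2.81 were identical with these peaks and with a −log10 q of at least 10, so these alternatives did not probe them. The ratio of the median RAB fold enrichment to that of all genes, 1.69, was 1.76 within 100 bp of a TSS, 1.65 within 3000 bp, 1.78 with the TSS under the peak, 1.91 at the canonical TSS, 1.77 with TSSs of protein-coding transcripts and 1.99 by −log10 q. The ratio of the epithelial to the haematopoietic and neuronal RAB genes, 2.81, was 3.34 within 3000 bp, 3.24 with protein-coding transcripts and 3.90 by −log10 q. The median percentile of RAB peaks, 67.7, was 66.4 within the own chromosome. The median density of peaks around RAB genes, 12.5 per 100 kb, fell to 9.02 when peaks under a −log10 q of 10 were dropped, as fewer peaks entered. The matching density of all genes is not given, so this alternative does not probe the excess of RAB genes over all genes. The median CpG ratio, 0.815, was 0.779 with 500 bp on each side of the canonical TSS. The cause of the other moves was not tested.

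From each replicate alone, RAB genes with a TSS peak numbered from 53 to 54, the RAB ratio was from 1.68 to 1.70 and the epithelial ratio from 2.61 to 3.01. With the 50000 strongest peaks, 47 of 57 RAB genes and 11959 of all 19111 genes were open. No paired analysis was possible because the design has 1 condition. Depth limits the lists to peaks past the caller's threshold, and SDs of 2 replicates are rough.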
